A study of Mus musculus with 12 samples.

Results

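Respiratory chain genes were read in B cells and plasma cells of mouse lymph node as 102 of the 13886 genes of the deposited matrix. The members were all rows whose symbol names a subunit or Nduf-type assembly factor of complex I, succinate dehydrogenase, a Uqcr subunit of complex III, Cox4 to Cox8 subunits of complex IV, an Atp5 subunit of ATP synthase or a gene of the mitochondrial genome. Of these, 89 are nuclear genes and 13 are the protein genes of mitochondrial DNA, and no mitochondrial ribosomal or transfer RNA row was among them. Mice had been primed with NP-KLH, a hapten on a carrier protein, in Sigma Adjuvant System and gavaged with tamoxifen 5 days before cells were taken, on day 16 of the primary response. All cells were live, IgD-negative and eYFP-positive. The sources used here do not give the strain, the age or the driver of the reporter. Plasma cells and other B cells of 3 mice were sorted, hashed by mouse and captured in separate wells of a 5′ droplet assay, which gave 6000 cells with a mouse and a state in the authors' table.

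The states, as the authors called them from the expression of the same cells, were plasma cells (PC, 137 cells), prePC (49), preMem (396), LZtoDZ (165), dark zone germinal center cells (DZ, 3040) and light zone cells (LZ, 2213). Germinal center (GC) below is the average of DZ, LZ and LZtoDZ, the B cells that divide and mutate (DZ), are selected by antigen and T cell help (LZ) or return from selection to division (LZtoDZ). preMem and prePC are states on the way to memory B cells and plasma cells. Summed levels of fixed markers followed the names of PC and LZtoDZ. Prdm1, Xbp1, Irf4, Sdc1, Jchain and Mzb1 together reached 26860 to 31470 CPM (a level relative to all UMIs of a sum) in PC. Myc, Ccnd2, Nme1, Ncl and Batf together were at 2010 to 2540 CPM in LZtoDZ, against 803 to 809 CPM in LZ. prePC carried 3131 to 6188 CPM of the plasma cell list, against 2631 to 2829 CPM in DZ. The memory precursor markers Cd38, Klf2, Ccr6, Bcl2 and S1pr1 together reached 1100 to 1241 CPM in preMem and 724 to 1187 CPM in prePC, against at most 47.9 CPM in DZ, LZ and LZtoDZ. The values of preMem and prePC overlapped, so this list did not set the 2 states apart. Median depth was 24018 UMIs per cell in PC, 9225 in prePC, 4119 in preMem, 19103 in LZtoDZ, 7875 in DZ and 6258 in LZ. Of the PC, 117 carried the second of the 2 barcode series and 20 the first, while all DZ and LZ cells carried the first, so that PC and GC differ in series as well as in state. No barcode was shared between the series. Markers of T, NK, stromal and erythroid cells were at most 48.0 CPM as summed lists in any state; the myeloid list reached 355 CPM in prePC of 1 mouse.

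The respiratory chain passes electrons from NADH (complex I) and succinate (complex II) through ubiquinone, complex III and cytochrome c to oxygen at complex IV, and ATP synthase (complex V) uses the proton gradient this builds. Complexes I, III, IV and V combine subunits made from nuclear genes with a few made inside the mitochondrion from mitochondrial DNA, and complex II is wholly nuclear. The nuclear genes are read one by one from their own promoters, whereas the mitochondrial genes are read as long joint transcripts of a circular genome and then cut apart. In B cells, activation and division are known to raise mitochondrial mass and respiration.

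Promoters are shown for 4 nuclear genes, since the main contrasts set most nuclear members apart from a few that went the other way. Sdhd and Cox6a1 moved with the majority in PC, preMem and LZtoDZ. Cox7a2l and Uqcrh moved against it in preMem and LZtoDZ, and they were chosen after their values were seen. Each line gives the 250 bases upstream of the RefSeq start (GRCm38.p6), 5′ to 3′ on the strand of the gene, which is the minus strand for all 4. Capitals mark the letters of the NRF1 motif (GCGC, any base, TGCGC) or CCGGAAG of the ETS motif on either strand.
Sdhd, chr9:50603850-50604099: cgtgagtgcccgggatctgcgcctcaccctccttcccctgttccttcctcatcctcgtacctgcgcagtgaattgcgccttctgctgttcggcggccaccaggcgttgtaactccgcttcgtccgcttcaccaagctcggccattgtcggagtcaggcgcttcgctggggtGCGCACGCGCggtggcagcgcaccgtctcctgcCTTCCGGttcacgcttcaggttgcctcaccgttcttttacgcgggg
Cox6a1, chr5:115348959-115349208: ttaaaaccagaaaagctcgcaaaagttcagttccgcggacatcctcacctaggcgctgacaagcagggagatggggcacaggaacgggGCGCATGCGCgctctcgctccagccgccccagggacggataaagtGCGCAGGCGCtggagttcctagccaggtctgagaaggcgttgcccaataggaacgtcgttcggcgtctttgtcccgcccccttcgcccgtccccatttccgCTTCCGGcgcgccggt
Cox7a2l, chr17:83514334-83514583: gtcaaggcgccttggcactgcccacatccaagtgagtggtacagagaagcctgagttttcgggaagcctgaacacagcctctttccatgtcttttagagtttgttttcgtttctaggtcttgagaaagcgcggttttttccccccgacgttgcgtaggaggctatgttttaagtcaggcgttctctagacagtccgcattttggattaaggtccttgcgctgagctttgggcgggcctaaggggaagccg
Uqcrh, chr4:116075071-116075320: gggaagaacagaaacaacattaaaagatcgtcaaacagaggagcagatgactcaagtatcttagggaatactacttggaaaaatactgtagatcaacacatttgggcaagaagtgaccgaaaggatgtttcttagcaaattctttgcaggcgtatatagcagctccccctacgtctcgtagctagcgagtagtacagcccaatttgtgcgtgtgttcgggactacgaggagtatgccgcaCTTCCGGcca
The Sdhd window holds an NRF1 and an ETS match, that of Cox6a1 has a pair of NRF1 matches and an ETS match, that of Uqcrh has an ETS match, and none of the letters searched lies in that of Cox7a2l. RefSeq promoters (250 bases before to 50 after any annotated start) were found for 74 of the 89 nuclear members. The NRF1 letters were in 19 of the 74 (25.7%), against 1402 of 27025 genes (5.19%). These 27025 are all genes of the promoter set, expressed in these cells or not, and no background of expressed genes was searched. ETS letters were in 17 members (23.0%), against 9.93% of all genes, and the YY1 letters AAGATGGC were in 11 members (14.9%), against 3.19%. The ESRRA letters AAGGTCA were in 8 members (10.8%), against 5.38% of all genes. No matches of different motifs overlapped in a member. Ndufab1, Atp5g1 and Atp5b, which moved with the majority in preMem and LZtoDZ, held the letters of none of the 4 motifs. Of members that rose in preMem, Ndufa6 held the NRF1 letters, and Ndufa3 and Atp5sl the YY1 letters. The 4 genes shown therefore do not stand for the members at large. Within the members, the median log2 fold change in PC was 0.44 for the 19 members with the NRF1 letters and 0.33 for the 53 tested without them, in preMem it was -0.62 with and -0.48 without, and in LZtoDZ 0.44 with and 0.39 without. For the ETS letters (17 members with, 55 without) the medians were 0.35 with and 0.35 without in PC, -0.53 and -0.52 in preMem, and 0.32 and 0.43 in LZtoDZ. For the YY1 letters (11 and 61) they were 0.33 with and 0.35 without in PC, -0.60 and -0.50 in preMem, and 0.41 and 0.39 in LZtoDZ. For the ESRRA letters (8 and 64) they were 0.51 with and 0.33 without in PC, -0.52 in both in preMem, and 0.52 and 0.39 in LZtoDZ. The 4 motifs thus differed in direction, and none of these differences was tested. A match of letters is a description of these windows and no record of binding.

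**Figure D1:**
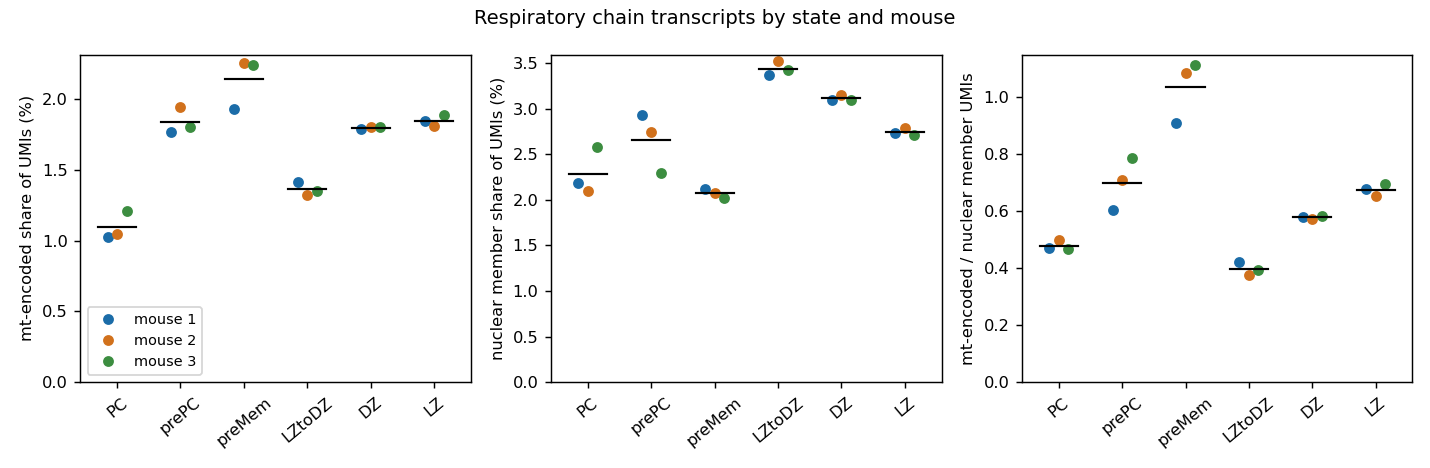
Share of all UMIs from the 13 mitochondrially encoded genes (left), share from the 89 nuclear members (middle) and their ratio (right), for each state on the horizontal axis. Each point is 1 mouse and each short line the mean of 3 mice. preMem has the highest ratio, with 0.910 to 1.11 mitochondrially encoded UMIs per nuclear one, and LZtoDZ the lowest, with 0.375 to 0.421.

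The balance between the genomes differed between states. In preMem the 13 mitochondrially encoded genes took 1.93% to 2.25% of all UMIs in the 3 mice and the nuclear members 2.02% to 2.12%, a ratio of 1.04 ± 0.11 (SD, n = 3 mice). prePC stood at a ratio of 0.700 ± 0.093, LZ at 0.674 ± 0.023, DZ at 0.577 ± 0.0056 and PC at 0.479 ± 0.018. LZtoDZ had the lowest ratio, 0.397 ± 0.023, from 1.36% ± 0.050 mitochondrially encoded and 3.44% ± 0.077 nuclear UMIs. The ranges of prePC and LZ overlapped, and the other neighbours in this order did not. With 3 mice the exact two-sided sign-flip permutation test cannot go below p = 0.25, and the ratio gave p = 0.25 in each of the 5 comparisons of states because all 3 mice moved the same way. Counted per cell instead, LZtoDZ carried most transcripts of both genomes, 279 ± 23.3 mitochondrially encoded and 706 ± 89.6 nuclear UMIs, and preMem the fewest, 99.1 ± 11.1 and 95.7 ± 1.56. Both counts of LZtoDZ overlapped those of PC. The mitochondrially encoded count was 254 to 300 in LZtoDZ and 242 to 283 in PC, and the nuclear count 602 to 761 and 485 to 607. UMIs per cell also carry the median depth of each state, given above. More transcripts per mitochondrion and more mitochondria per cell cannot be told apart in these counts.

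Single genes were compared between states by summing the UMIs of each mouse in each state and applying edgeR's quasi-likelihood test, with the mouse as a block and Benjamini-Hochberg adjustment over all 8473 genes tested, and a change passes at an adjusted p under 0.05. Levels are CPM scaled by TMM, a scaling that sets the bulk of genes level between sums. Of the 102 members 97 were tested. The other 5, all of the complex IV group, were alternative isoforms with few UMIs over the 6000 cells: 4 for Cox6a2 and 203 for Cox7a1 (muscle forms), 109 for Cox6b2 (a testis form), 31 for Cox4i2 and 7 for Ndufa4l2. Their widespread counterparts Cox6a1, Cox7a2, Cox6b1, Cox4i1 and Ndufa4 were tested in every comparison. Among mice, members varied least in DZ, with a median coefficient of variation of 1.84%, and most in prePC, with 20.6%.

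Memory precursors showed the widest split between the genomes among the 5 comparisons of states. In preMem against GC, 55 of 84 nuclear members tested fell and 5 rose, with a median log2 fold change of -0.53, while 10 of the 13 mitochondrially encoded genes rose and 0 fell, with a median of 0.43. Over all genes the median was 0.076, 21.5% fell and 25.4% rose. By complex, 21 of 29 accessory and 3 of 7 core subunits of complex I fell, with medians of -0.43 and -0.22. In complex II 3 of 4 genes fell, in complex III 6 of 8, complex IV 9 of 12 and complex V 11 of 15, with medians between -0.54 and -0.65.

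**Figure D2:**
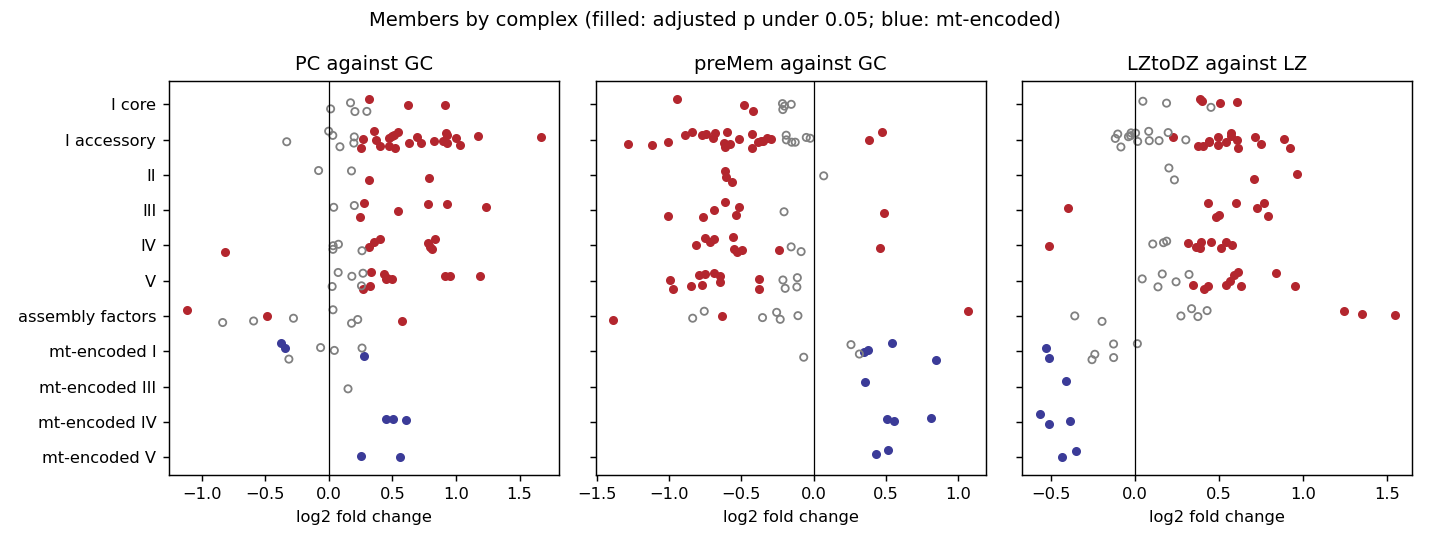
log2 fold change of each member tested (horizontal axis), grouped by complex (vertical axis), for PC against GC, preMem against GC and LZtoDZ against LZ. Filled points passed an adjusted p of 0.05, with nuclear genes in red and mitochondrially encoded ones in blue, and open points did not pass. In preMem the nuclear points lie mostly left of 0 and the mitochondrial ones right of it, and in LZtoDZ the sides are exchanged.

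Ndufab1, the mitochondrial acyl carrier protein that is also a complex I subunit, had 111, 94.2 and 87.4 CPM in preMem of the 3 mice, against 233, 249 and 258 CPM in GC. All preMem values lay below all GC values, and the log2 fold change was -1.28 ± 0.13 (SE; adjusted p = 1.19e-06, edgeR). Ndufv1, the core subunit that binds NADH, stood at 59.8, 58.7 and 45.1 CPM in preMem, against 104, 110.3 and 104 CPM in GC, -0.95 ± 0.15 on the log2 scale. Ndufa12 fell by 1.12 and Ndufc2 by 1.01 on that scale. In complex II the membrane anchors Sdhd and Sdhc fell by 0.62 and 0.57 and the iron-sulfur subunit Sdhb by 0.61. Sdha, the flavoprotein that oxidises succinate, did not pass, with 145, 116 and 103 CPM in preMem, against 109.5, 117 and 115 CPM in GC. For complex III, Uqcr10 had 197, 180.3 and 185 CPM in preMem, against 357, 410.4 and 384 CPM in GC (-1.01 ± 0.18, log2). Uqcr11 and Uqcrq fell by 0.76 and 0.69. Among complex IV genes Cox6a1 fell by 0.81, Ndufa4 by 0.75, Cox5a by 0.72, Cox7a2 by 0.69, Cox6b1 by 0.53 and Cox8a by 0.24. Cox4i1, the widespread form of subunit 4, was at 994, 985 and 1030.4 CPM in preMem, against 1104, 1149.8 and 1104 CPM in GC, and did not pass (adjusted p = 0.0898). In ATP synthase the catalytic beta subunit Atp5b had 470.1, 453 and 406 CPM in preMem, against 895, 917 and 903 CPM in GC, -0.99 ± 0.12 on the log2 scale. Atp5j fell by 0.85. The 3 genes for the same c-ring protein fell unequally, Atp5g3 by 0.98, Atp5g1 by 0.75 and Atp5g2 by 0.38.

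Of the assembly factors Ndufaf4 and Ndufaf2 fell, by 0.63 and 1.39. Of the nuclear members 5 rose in preMem. Atp5sl, named after ATP synthase but known in human cells as an assembly factor of complex I, had 55.6, 77.8 and 67.7 CPM in preMem, against 32.3, 35.4 and 30.8 CPM in GC (1.07 ± 0.12, log2). Uqcrh, the hinge protein of complex III, stood at 829, 774 and 829 CPM in preMem, against 582, 598 and 574 CPM in GC, and Cox7a2l, which links complexes III and IV into supercomplexes, at 353, 436 and 407 against 299.6, 300.4 and 294 CPM. Their log2 fold changes were 0.48 ± 0.11 and 0.46 ± 0.10 (SE). Ndufa6 rose by 0.47 and Ndufa3 by 0.38; the Ndufa3 values overlapped between preMem and GC, and mouse 1 was highest in both.

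The mitochondrially encoded genes that rose most in preMem were mt-Nd5 (complex I) and mt-Co1 (the catalytic subunit of complex IV). mt-Nd5 had 756, 680.1 and 710.4 CPM in preMem, against 417, 392 and 402 CPM in GC (0.84 ± 0.12, log2). mt-Co1 had 3974, 4971 and 4871 CPM in preMem, against 2691, 2633 and 2655 CPM in GC (0.81 ± 0.07; adjusted p = 1.9e-07, edgeR). mt-Nd2, mt-Nd4 and mt-Nd4l rose by 0.35, 0.54 and 0.38, mt-Cytb by 0.36, and the other complex IV and V genes by 0.43 to 0.55. mt-Nd1, mt-Nd3 and mt-Nd6 did not pass, and mt-Nd1 lay at 938, 1102 and 1030.4 CPM in preMem, against 1084, 1065 and 1073 CPM in GC. Most preMem were called G1, so the comparison was also made among G1 cells. There 34 nuclear members fell, 3 rose and the median was -0.30. Of the mitochondrially encoded genes 6 rose and 0 fell, with a median of 0.32. Over all 7645 genes of that fit 835 fell and 1117 rose, with a median of 0.033. GC was there the average of DZ and LZ alone, since LZtoDZ had 5 to 7 G1 cells per mouse. The reference thus changed along with the phase. With every cell thinned to 2000 UMIs, 36 nuclear members fell, 4 rose and 10 of 12 mitochondrially encoded genes rose. Over all 3372 genes of that fit 753 fell and 877 rose.

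Cells returning from the light to the dark zone had the opposite balance. In LZtoDZ against LZ, 50 of 84 nuclear members rose and 2 fell, with a median of 0.41, while 8 of 13 mitochondrially encoded genes fell and 0 rose, with a median of -0.38. The median over all genes was -0.080, with 22.5% higher and 24.3% lower. The authors defined LZtoDZ by an activation score whose genes the sources used here do not list, so members of the chain could be among them. Complex I rose in 16 of 29 accessory and 4 of 7 core subunits, complex II in 2 of 4, complex III in 7 of 8, complex IV in 8 of 12 and complex V in 10 of 15. Assembly factors rose in 3 of 9.

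Ndufaf4, a complex I assembly factor, had 111, 79.8 and 92.0 CPM in LZtoDZ, against 29.7, 28.0 and 36.0 CPM in LZ, a log2 fold change of 1.54 ± 0.11 (adjusted p = 3.68e-08, edgeR). Ndufaf6 and Ndufaf2 rose by 1.35 and 1.25 on the log2 scale. Sdhd stood at 186, 162 and 142 CPM in LZtoDZ, against 84.4, 84.0 and 80.7 CPM in LZ (0.96 ± 0.13, log2), and no mouse overlapped. Sdhc rose by 0.71, and Sdha at 0.20 and Sdhb at 0.24 did not pass. Ndufab1 had 323, 356 and 384 CPM in LZtoDZ, against 174, 193 and 194 CPM in LZ, and Atp5g1 had 691, 779.8 and 694 against 366, 384 and 369 CPM. Both rose, by 0.92 and 0.95, and so did the complex I subunits Ndufa12 and Ndufb6, by 0.89 and 0.75. The other c-ring genes Atp5g3 and Atp5g2 rose by 0.63 and 0.41. Atp5b was at 1184, 1239 and 1200.4 CPM in LZtoDZ, against 680.3, 675 and 667 CPM in LZ (0.84 ± 0.14, log2). In complex III, Uqcr11, Uqcrq and Uqcr10 rose by 0.79, 0.77 and 0.73. In complex IV, Cox7a2, Cox5a and Cox7b rose by 0.58, 0.54 and 0.51, and Cox6a1, Ndufa4 and Cox8a by 0.40, 0.39 and 0.32. Cox4i1 at 0.11 and Cox6b1 at 0.17 did not pass.

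The only nuclear members to fall in LZtoDZ were Cox7a2l and Uqcrh, a pair that had risen in preMem. Cox7a2l had 213, 211 and 201 CPM in LZtoDZ, against 304, 292 and 292 CPM in LZ (-0.51 ± 0.13, log2). Uqcrh had 459, 519 and 472 CPM in LZtoDZ, against 638, 633 and 634 CPM in LZ (-0.39 ± 0.13, log2). Without mouse 2 neither passed, and 1 nuclear member fell without mouse 1 and 1 without mouse 3. The comparisons share cells, since GC holds LZ and LZtoDZ.

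**Figure D3:**
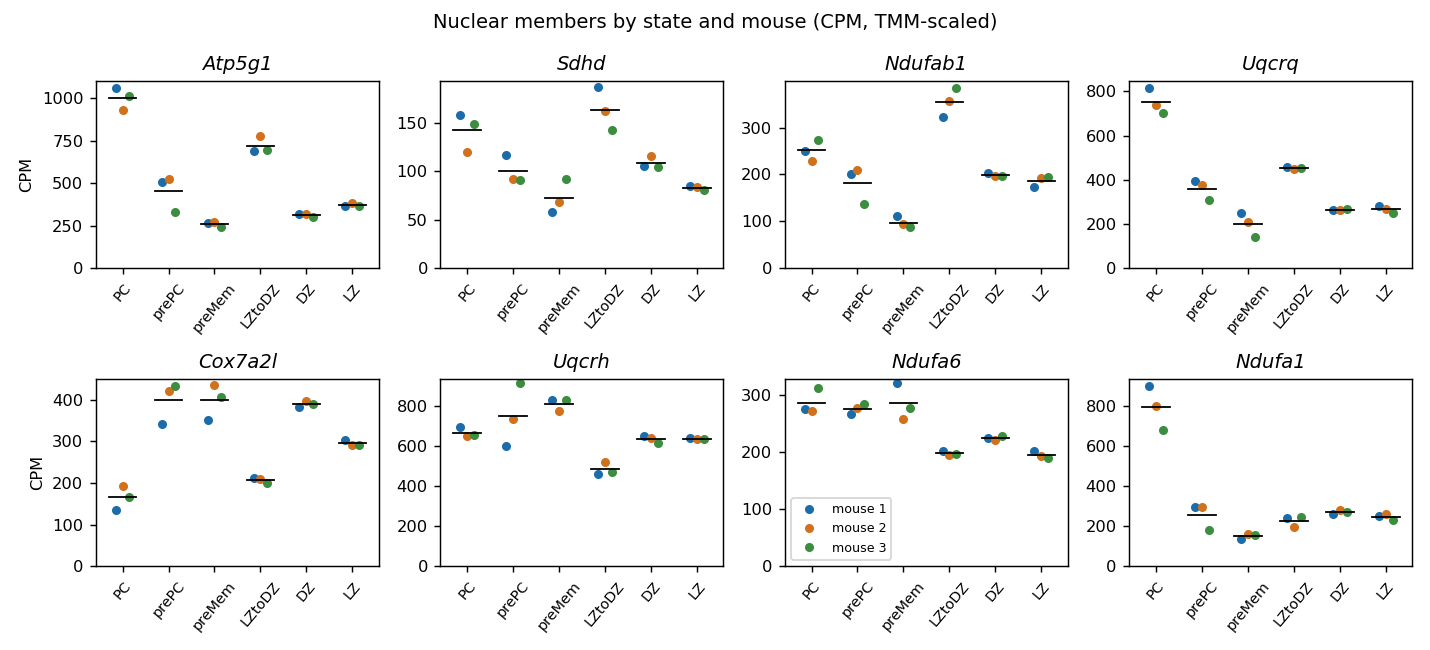
CPM (TMM-scaled) of 8 nuclear members by state; each point is 1 mouse and each short line the mean of 3. Atp5g1, Sdhd, Ndufab1 and Uqcrq are higher in LZtoDZ than in preMem, Cox7a2l, Uqcrh and Ndufa6 are lower in LZtoDZ than in preMem, and Ndufa1 is highest in PC.

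Among mitochondrially encoded genes mt-Co1 had 2088, 1990.0 and 2051 CPM in LZtoDZ, against 3071, 2969 and 3019 CPM in LZ, and the log2 fold change was -0.56 ± 0.089 (adjusted p = 9.87e-05, edgeR). mt-Co3 and mt-Co2 fell by 0.51 and 0.38, mt-Nd4l and mt-Nd5 (complex I) by 0.53 and 0.51, mt-Cytb (complex III) by 0.41, and mt-Atp8 and mt-Atp6 (complex V) by 0.43 and 0.35. mt-Nd1 stood at 1155, 1059 and 1077 CPM in LZtoDZ, against 1077, 1083 and 1095 CPM in LZ, and did not pass, nor did the other 4 complex I genes. These are relative levels: per cell, LZtoDZ held 254 to 300 mitochondrially encoded UMIs, against 123 to 133 in LZ, while total UMIs per cell differed by more. Without mouse 2, 2 mitochondrially encoded genes fell and 35 nuclear members rose, while 1703 of all 8229 genes rose and 1272 fell. Among S phase cells alone, a comparison chosen after seeing the data, 60 nuclear members rose and 2 fell, and 9 mitochondrially encoded genes fell. Over all 8991 genes of that fit 1679 rose and 1615 fell.

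Plasma cells had more of most nuclear members relative to other genes than GC cells, and a mixed mitochondrial set. In PC against GC, 52 of 84 nuclear members rose and 3 fell, with a median of 0.34, and 6 of 13 mitochondrially encoded genes rose and 2 fell, with a median of 0.25. Over all genes the median was -0.093, with 25.9% higher and 27.2% lower. The direction turned with the scaling. Immunoglobulin transcripts took 29.7% to 39.4% of PC UMIs and TMM factors were 0.566 to 0.706 in PC, against 1.01 to 1.17 in the other states. On plain totals 58 nuclear members fell and 4 rose, and all 13 mitochondrially encoded genes fell. Over all genes 5952 of 8473 fell and 991 rose on plain totals, with a median of -1.002. As shares of all UMIs, nuclear members held 2.29% ± 0.26 in PC, against 3.10% ± 0.049 in GC, and with immunoglobulin genes left out of the total 3.54% ± 0.16, against 3.13% ± 0.049 (SD, n = 3 mice each). The mitochondrially encoded share was 1.09% ± 0.098 in PC, against 1.67% ± 0.021 in GC, and without immunoglobulin genes 1.70% ± 0.016, against 1.69% ± 0.021. Per cell, PC held 267 ± 21.6 mitochondrially encoded and 559 ± 65.1 nuclear UMIs, against 189 ± 11.2 and 392 ± 36.3 in GC.

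Under TMM scaling, 23 of 29 accessory subunits of complex I rose, with a median of 0.51. Core subunits rose in 3 of 7, complex II in 2 of 4, complex III in 6 of 8, complex IV in 7 of 12 with 1 lower, and complex V in 10 of 15. Of the 9 assembly factors 1 rose and 2 fell. Ndufa1, a small subunit with a membrane-spanning segment, had 897, 801 and 678 CPM in PC, against 251, 245 and 249 CPM in GC (1.67 ± 0.12, log2; adjusted p = 8.51e-09, edgeR). It was also higher in PC on plain totals, by 0.77. Ndufa3 and Ndufb11 rose by 1.17 and 1.03. Among core subunits Ndufs3 led, with 291, 249 and 242 CPM in PC, against 140.2, 142 and 135 CPM in GC. Sdhc rose by 0.79 and Sdhd by 0.32, while Sdha and Sdhb did not pass. Uqcrq, a small complex III subunit, stood at 813, 739 and 702 CPM in PC, against 335, 328 and 324 CPM in GC (1.23 ± 0.11, log2). Uqcr11 rose by 0.93 and Uqcrfs1, the Rieske iron-sulfur protein, by 0.78. In complex IV, Ndufa4 rose by 0.84, Cox6a1 by 0.81, Cox7c by 0.80, Cox7a2 by 0.78 and Cox8a by 0.35, and Cox4i1 at 0.076 and Cox6b1 at 0.033 did not pass. Cox7a2l was the exception, with 135, 193 and 167 CPM in PC, against 299.6, 300.4 and 294 CPM in GC (-0.81 ± 0.11, log2). Of the c-ring genes Atp5g1 had 1059, 929 and 1012 CPM in PC, against 459, 494 and 455 CPM in GC (1.19 ± 0.11, log2), Atp5g3 rose by 0.46 and Atp5g2 at 0.27 did not pass. The membrane subunits Atp5j2 and Atp5k rose by 0.95 and 0.91. Of these members Sdhc, Sdhd, Uqcrfs1, Ndufa4, Cox6a1, Cox7c, Cox7a2, Cox8a and Atp5g3 had negative values on plain totals.

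Among the mitochondrially encoded genes the direction differed by gene. mt-Co1 had 3957, 4232 and 3770.5 CPM in PC, against 2691, 2633 and 2655 CPM in GC (0.60 ± 0.07, log2). mt-Nd1 had 790.2, 797 and 891 CPM in PC, against 1084, 1065 and 1073 CPM in GC (-0.38 ± 0.11, log2), and mt-Nd2 fell by 0.34. From mt-Co1 to mt-Co3, which neighbour each other on the plus strand, log2 fold changes were 0.25 to 0.60, and all 5 genes passed. The complex I genes on either side lay between -0.38 and 0.28, and mt-Nd3 alone of them rose. mt-Atp8 and mt-Atp6 share 43 bases, mt-Nd4l and mt-Nd4 share 7 and mt-Nd5 and mt-Nd6 share 14 (GENCODE vM21, GRCm38), so reads there may be split between neighbours. mt-Nd6 alone lies on the minus strand.

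**Figure D4:**
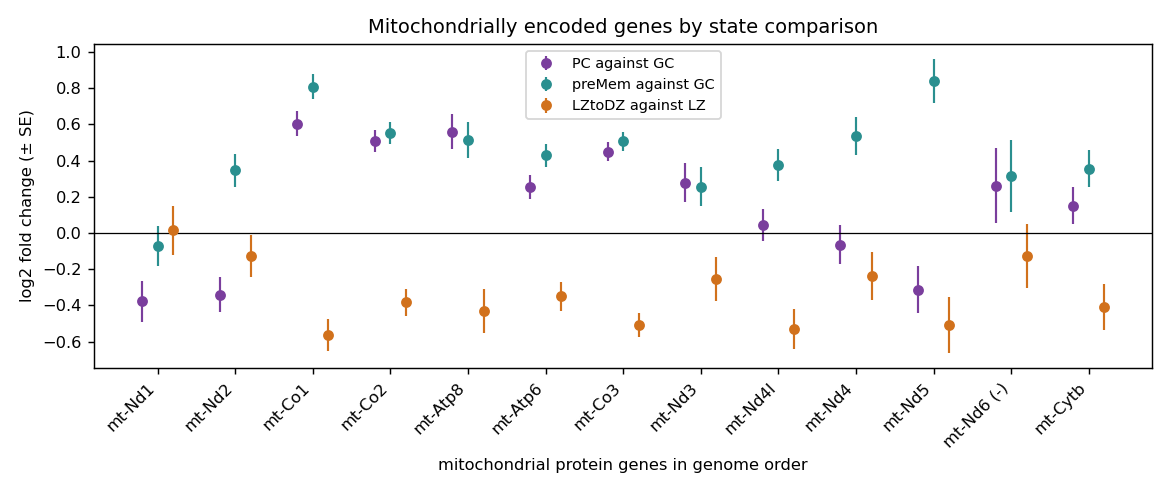
log2 fold change ± SE of the 13 mitochondrially encoded genes (vertical axis) in genome order (horizontal axis), for PC against GC, preMem against GC and LZtoDZ against LZ. mt-Co1 to mt-Co3 lie above 0 in PC and preMem and below 0 in LZtoDZ, and mt-Nd1 and mt-Nd2 lie below 0 in PC.

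The 20 PC of the first barcode series had 1.26% mitochondrially encoded, 2.94% nuclear member and 11.4% immunoglobulin UMIs, against 1.06%, 2.16% and 39.4% in the 117 PC of the second series. Only mouse 2 had 10 or more PC in the first series. In a fit that left out the second series, its 11 PC were the only ones, assumed to vary like other sums; 2 nuclear members rose, 0 fell, 6 mitochondrially encoded genes fell and the median of all genes was -0.37. State, well and series therefore cannot be told apart for PC. Left with second-series PC alone, chosen after seeing the data, 54 nuclear members rose and 4 fell. Over all 8418 genes of that fit 2218 rose and 2353 fell.

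In prePC, from 10 to 22 cells per mouse, fewer members passed. The counts of nuclear members that rose and that fell lay below the shares over all genes. Of 84 nuclear members 6 rose and 3 fell, with a median of -0.10, and 6 of 13 mitochondrially encoded genes rose and 0 fell, with a median of 0.14, while the median of all genes was -0.071 with 10.5% higher and 7.48% lower. mt-Co1 had 3364, 4241 and 4347 CPM in prePC, against 2691, 2633 and 2655 CPM in GC (0.60 ± 0.071, log2; adjusted p = 1.71e-05, edgeR). mt-Co2, mt-Co3, mt-Atp6, mt-Atp8 and mt-Nd5 rose too, by 0.35 to 0.50. Of nuclear members Sdhc, Cox7a2l, Cox7c, Ndufa6, Uqcrh and Cox8a rose, by 0.23 to 0.55, and Ndufs1, Uqcr11 and Atp5g3 fell, by 0.54 to 1.14. Atp5g1, Atp5g2, Cox4i1, Cox6a1, Cox6b1, Cox7a2, Ndufa4, Sdha, Sdhb and Sdhd did not pass. Ndufs1, a core subunit with iron-sulfur clusters, had 32.8, 14.7 and 22.8 CPM in prePC, against 48.9, 52.9 and 49.1 CPM in GC. Those prePC sums held 208272, 270904 and 83381 UMIs in all, so each value rests on few UMIs of Ndufs1. Without mouse 1, 3 nuclear members rose and 7 fell, while 613 of all 8569 genes rose and 367 fell. Without mouse 2, 0 rose and 3 fell, while 551 of all 8229 genes rose and 386 fell. Without mouse 3, 1 rose and 2 fell, while 727 of all 8542 genes rose and 388 fell. Among G1 cells alone, with GC as the average of DZ and LZ, 1 nuclear member and 0 mitochondrially encoded genes passed. Their medians were 0.061 and 0.28, and over all 7645 genes 560 rose and 269 fell. The 40 prePC in the authors' preMem cluster had a ratio of mitochondrially encoded to nuclear UMIs of 0.773, and the other 9 prePC 0.496. The memory precursor markers, 724 to 1187 CPM in prePC, moved with it too, and their part in these changes was not tested. The myeloid list, high in 1 mouse, moved with prePC. Without the cells that held 2 or more UMIs of other cell types 4 nuclear members rose, 2 fell and 5 mitochondrially encoded genes rose. Over all 8707 genes of that fit 706 rose and 407 fell.

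Few members passed between DZ and LZ, and the count of nuclear members that rose lay near the share over all genes. Nuclear members rose in 6 of 84 and fell in 1, with a median of 0.15, against a median of -0.016 over all genes with 8.17% higher and 11.3% lower, and 0 of 13 mitochondrially encoded genes passed in either direction. None of the 13 was under an unadjusted p of 0.05 in edgeR, against 2600 of all 8473 genes, and DESeq2 called 0 higher and 1 lower. The 6 that rose held 3 of the 4 complex II genes, Sdhb, Sdhd and Sdhc. Sdhb had 386, 395 and 393 CPM in DZ, against 270.3, 303 and 295 CPM in LZ (0.44 ± 0.14, log2; adjusted p = 0.033, edgeR), and Sdhd rose by 0.39. The other 3 were Ndufs5, Cox7a2l and Atp5sl. Cox7a2l stood at 382, 398 and 389.5 CPM in DZ, against 304, 292 and 292 CPM in LZ. Ndufaf4 fell, with 24.2, 23.6 and 25.8 CPM in DZ, against 29.7, 28.0 and 36.0 CPM in LZ. The size of this set moved with the method. Of 84 nuclear members 75 had positive values, against 4002 of all 8473 genes. DESeq2 called 33 higher and 2 lower, against 697 and 861 of all genes. Without immunoglobulin genes edgeR called 38 higher and 3 lower, against 1095 and 1454 of 7637 genes. With all genes kept, edgeR called 1 higher and 1 lower without mouse 1, 1 higher without mouse 2 and 0 without mouse 3.

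Across the cell cycle calls of GC cells, averaged over DZ and LZ, more nuclear members rose than fell in dividing cells, and few mitochondrially encoded genes passed. This fit tested 9162 genes and 98 members, Cox7a1 among them, which did not pass. In S against G1, 36 of 85 nuclear members rose and 6 fell, with a median of 0.14 (all genes -0.041, 21.9% higher and 20.2% lower). In G2/M against G1, 33 rose and 9 fell, with a median of 0.13 (all genes -0.041, 20.0% in each direction). Mitochondrially encoded genes passed in 1 higher and 1 lower in S, and 1 higher and 2 lower in G2/M. The subunit Ndufa5 of complex I had 104, 98.1 and 100.4 CPM in G1, 152, 156 and 144 CPM in S and 147, 153 and 145 CPM in G2/M of the 3 mice, with log2 fold changes over G1 of 0.58 and 0.56. Atp5g3 was at 825, 855 and 842 CPM in G1, 1149.7, 1205 and 1184 CPM in S and 1131, 1123 and 1145 CPM in G2/M. By complex, 9 of 15 complex V and 7 of 13 complex IV genes rose in S, and 8 and 6 in G2/M. Sdhd rose by 0.34 and 0.42 in S and G2/M, Ndufv1 by 0.41 and 0.48, Cox7a2 by 0.28 and 0.46, and Uqcr10 by 0.40 and 0.30. Atp5g1 rose by 0.22 in S and stood at -0.066 in G2/M. Uqcrh and Cox7a2l ran the other way. Uqcrh had 739.6, 747 and 721 CPM in G1, 602, 627 and 595 CPM in S and 565, 546 and 547 CPM in G2/M, and Cox7a2l fell by 0.22 in S and by 0.56 in G2/M. mt-Co1 fell by 0.12 in S and by 0.13 in G2/M, and the mice did not overlap. mt-Nd6 rose by 0.30 in S, mt-Nd1 rose by 0.19 in G2/M and mt-Nd5 fell by 0.24 in G2/M. When any 1 mouse was left out, 0 mitochondrially encoded genes passed in S and 0 rose in G2/M, the rise of mt-Nd1 included. In G2/M 1 fell without mouse 1, 1 without mouse 2 and 0 without mouse 3. Whether these phase changes differed between DZ and LZ was tested directly: 0 of 98 members passed in S (all genes 0.0% in each direction) and 0 in G2/M (0.0218% higher, 0.0546% lower). At an unadjusted p under 0.05 in edgeR there were 2 and 7 members, against 508 and 939 of all 9162 genes. DESeq2 called 0 members in S, and 1 higher and 3 lower in G2/M. Over all genes it called 43 higher and 9 lower in S, and 107 higher and 50 lower in G2/M.

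Relative to other genes under TMM scaling, cycling PC had less of most mitochondrially encoded genes than G1 PC, and a mixed nuclear set. Of 85 nuclear members 10 rose and 16 fell in S and G2/M PC (13 to 17 cells per mouse) against G1 PC (20 to 41 cells), with a median of 0.0008, while 9 of 13 mitochondrially encoded genes fell and 0 rose, with a median of -0.37. Over all genes the median was -0.090, with 10.0% higher and 11.3% lower. mt-Co1 had 2734, 3068 and 2817 CPM in cycling PC, against 5028, 5049.6 and 4464 CPM in G1 PC (-0.75 ± 0.06, log2; adjusted p = 9.78e-09, edgeR). mt-Co2 and mt-Co3 fell by 0.49 and 0.47 and mt-Nd4, mt-Nd4l and mt-Nd5 by 0.50 each. Ndufa1 had 468, 404 and 430.5 CPM in cycling PC, against 1345, 1147 and 914 CPM in G1 PC (-1.38 ± 0.13, log2), and Uqcrq fell by 0.68. Complex I accessory subunits made up 11 of the 16 nuclear genes that fell. Sdhd rose, with 178, 125 and 179.6 CPM in cycling PC, against 108, 102 and 75.5 CPM in G1 PC (0.72 ± 0.16, log2). Ndufa9, Ndufab1, Ndufv1, Uqcr10, Cox5a, Cox8a, Atp5a1, Atp5b and Atp5g3 rose by 0.34 to 0.71.

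The change from G1 to S and G2/M was compared between PC and GC by testing the difference itself, a comparison added after seeing the data. It was lower in PC for 20 of 98 members and higher for 0 (all genes 5.96% lower, 3.47% higher). The 20 were 13 nuclear members, 11 of them complex I subunits, and 7 mitochondrially encoded genes. Ndufa1 differed most, by -1.51 on the log2 scale, followed by Uqcrq (-0.81) and mt-Co1 (-0.63). Without mouse 1, 2 or 3 the count was 9, 9 and 6. Without mouse 2, 4 nuclear members rose and 7 fell with cycling in PC, and without mouse 3, 6 rose and 6 fell.

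These directions turned with the scaling too. Immunoglobulin transcripts took 18.3% to 21.5% of UMIs in cycling PC, against 40.3% to 52.2% in G1 PC of the 3 mice. On plain totals 76 nuclear members and 10 mitochondrially encoded genes were higher in cycling PC, and 1 nuclear member, Ndufa1, was lower. Over all 9162 genes 3307 were higher and 224 lower on plain totals, with a median of 0.71. Per cell, cycling PC held 363 to 395 mitochondrially encoded and 873 to 963 nuclear member UMIs. G1 PC held 188 to 232 and 324 to 427. The mitochondrially encoded share of all UMIs was 1.23% to 1.28% in cycling PC, against 0.877% to 1.16% in G1 PC. The ratio of mitochondrially encoded to nuclear member UMIs does not depend on the scaling, and it was 0.411 to 0.427 in cycling PC, against 0.543 to 0.581 in G1 PC. Of cycling PC 13 of 46 belonged to the first barcode series, against 7 of 91 G1 PC. A comparison with second-series PC alone, chosen after seeing the data, leaves cycling PC of mice 1 and 2. There 8 nuclear members rose and 8 fell, and 0 mitochondrially encoded genes rose and 7 fell. Over all 9498 genes of that fit 694 rose and 709 fell.

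**Figure D5:**
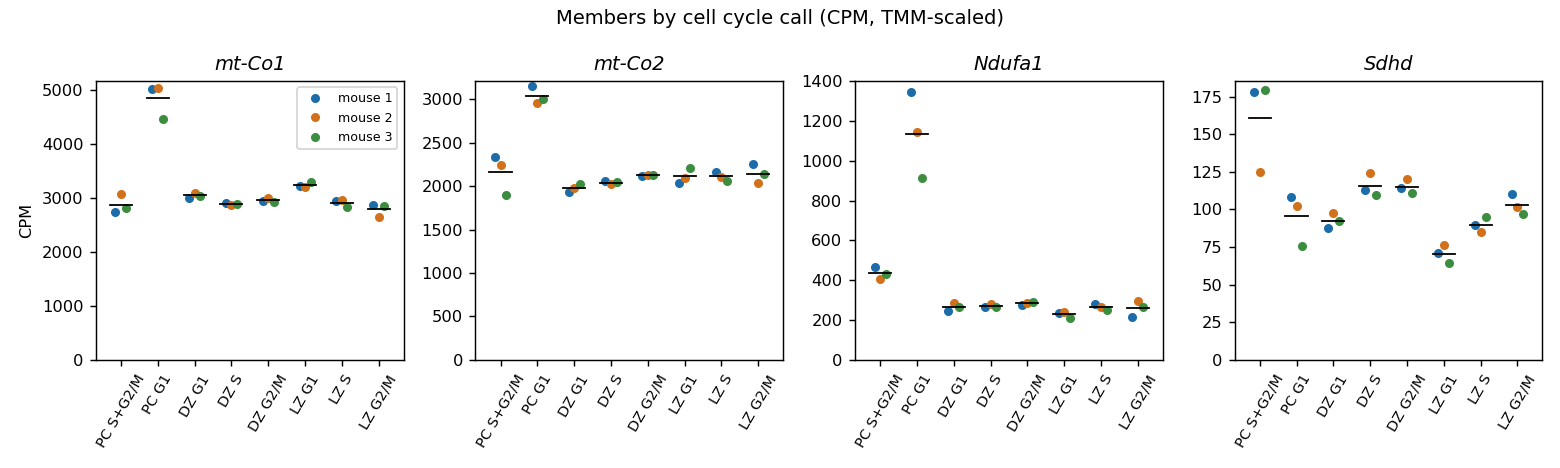
CPM (TMM-scaled) of mt-Co1, mt-Co2, Ndufa1 and Sdhd by state and cell cycle call. Each point is 1 mouse and each short line the mean of 3. mt-Co1, mt-Co2 and Ndufa1 are highest in G1 PC, and Sdhd is higher in cycling than in G1 PC.

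Ndufa3 stood apart between mice. Of the 94 members with UMIs in every sum, Ndufa3 alone had the same mouse highest in all 6 states. Mouse 1 exceeded the mean of the other 2 mice by a ratio of 1.47 to 1.77 (median 1.57). In DZ, Ndufa3 had 230.1, 130.1 and 131 CPM in mice 1, 2 and 3. It was singled out after its values were seen.

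Genes around the chain were counted in the same fits, from lists named for their function. Over all genes 25.4% rose and 21.5% fell in preMem, 22.5% rose and 24.3% fell in LZtoDZ, and 25.9% rose and 27.2% fell in PC. Of 18 citrate cycle and pyruvate dehydrogenase genes 11 fell and 0 rose in preMem, 13 rose and 0 fell in LZtoDZ, and 6 rose and 3 fell in PC. Their medians were -0.47, 0.49 and 0.093. Idh3a, a subunit of NAD-dependent isocitrate dehydrogenase, averaged 34.6 ± 11.5 CPM in preMem and 96.4 ± 4.69 CPM in GC, and 147 ± 8.56 CPM in LZtoDZ and 71.9 ± 6.91 CPM in LZ (SD, n = 3 mice). Of 38 other assembly factors and electron carriers tested 10 fell and 4 rose in preMem, 16 rose and 2 fell in LZtoDZ and 13 rose and 7 fell in PC. Cycs, cytochrome c, was at 85.8 ± 16.8 CPM in preMem and 255 ± 17.0 CPM in GC, at 409 ± 38.2 CPM in LZtoDZ and 174 ± 8.90 CPM in LZ, and at 526 ± 33.8 CPM in PC. Of 13 genes for mitochondrial DNA and its transcription 7 rose in LZtoDZ and 0 fell, among them Tfam, which packs mitochondrial DNA, with 79.2 ± 7.39 CPM in LZtoDZ and 58.8 ± 5.25 CPM in LZ. In preMem 3 of these 13 fell, and in PC 2 rose and 3 fell. Of 11 coenzyme Q synthesis genes 6 rose and 0 fell in LZtoDZ, 1 rose and 2 fell in preMem, and 2 rose and 1 fell in PC. Of 11 membrane carriers and antioxidant genes 8 rose and 2 fell in LZtoDZ, 0 rose and 7 fell in preMem, and 3 rose and 5 fell in PC. Of 7 nuclear regulators of respiratory genes tested 0 passed in LZtoDZ, Nrf1 fell in preMem, and Yy1, Gabpb2 and Nrf1 fell in PC. In LZtoDZ 2 of the 7 were under an unadjusted p of 0.05 in edgeR, against 4518 of all 8473 genes. The counts of the mitochondrial DNA and coenzyme Q lists in preMem and PC, and of the assembly factors that fell in preMem and PC, lay near or below the shares over all genes.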

How the data were processed

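Values were raw UMI counts per gene and cell, as deposited by the authors in 1 matrix of 13886 genes and 6000 cells (51973226 UMIs, median 7052.5 per cell), with each cell's mouse, state, phase and cluster in the authors' table. The counts were made with Cell Ranger and Seurat on mm10 (GRCm38), per the submitters' processing notes; versions, filters on cells, doublet treatment, strand and the genes behind the scores and phase calls are not stated in the material at hand. The 12 libraries in 6 groups are not separate replicates: the replicates are the 3 mice, told apart by hashing antibodies.

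UMIs were summed per mouse and state (at least 10 cells; 18 sums) or per mouse, state and phase (24 sums). They were tested in edgeR 4.0.16 (R 4.3.3; filterByExpr, TMM, quasi-likelihood F-test, group plus mouse, Benjamini-Hochberg over all genes tested, threshold 0.05), with DESeq2 1.42.0 as an alternative. The standard error is the log2 fold change divided by the root of the F statistic. CPM values are TMM-scaled and given as mean ± SD over mice or for each mouse; the GC level is the mean of 3 states. The scripts were tested on simulated counts. Depth sets the precision, from 10 to 22 prePC cells per mouse to 753 to 1197 DZ cells. The mouse is a block because every mouse gives every state. Over 2706 genes, deviations of sums of the same mouse had a median correlation of 0.0939 (45 pairs, lowest -0.131), against -0.0539 for sums of different mice (90 pairs).

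The text names all mitochondrially encoded genes, the 3 largest changes in each direction in each complex that passed with at least 50 CPM and the same direction in 3 mice, isoform pairs and the succinate dehydrogenase genes. Ndufv1 in preMem, Ndufs3 in PC, Ndufaf2, Ndufaf6, Ndufaf4 and Atp5sl in DZ against LZ, Ndufa3 between mice, the members named for the difference between PC and GC in phase change, and the genes named from other lists (Idh3a, Cycs, Tfam, Nrf1, Yy1 and Gabpb2) lie outside this rule and were picked once their values had been seen. The members and lists were chosen with earlier results of these data known. Alternatives changed the scaling, tool, filter, block, cell minimum, phases, depth, immunoglobulin or mitochondrial genes, cells with 2 or more UMIs of other cell types, barcode series and mice. The preMem marker list is given for 5 of its 6 genes.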

Additional observations from a re-analysis of the deposited data

Results flagged for a closer look

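The effect of cycling (S and G2/M over G1) differed between PC and GC for 20 members, by the edgeR quasi-likelihood test of the difference itself with Benjamini-Hochberg adjustment over 9162 genes. Values below are the log2 change in PC minus that in GC, and all were negative. Ndufa1 had -1.51, Uqcrq -0.81, Ndufa4 -0.59, Ndufs3 -0.58, Ndufs5 -0.54, Ndufb4 -0.53 and Ndufa2 -0.45. Ndufb2 had -0.45, Ndufs7 -0.43, Ndufv3 -0.39, Ndufb9 -0.39, Ndufb11 -0.38 and Ndufa3 -0.35. Among mitochondrially encoded genes mt-Co1 had -0.63, mt-Co2 -0.54, mt-Nd4 -0.47, mt-Co3 -0.45, mt-Nd4l -0.43, mt-Atp6 -0.40 and mt-Nd5 -0.32. Adjusted p ran between 1.46e-06 for Ndufa1 and 0.0484 for mt-Nd5 in this test of edgeR. Immunoglobulin share, TMM factor and barcode series moved with the PC phases, and their part in these values was not tested. On plain totals 82 members were higher and 1 lower, and over all 9162 genes 3067 were higher and 107 lower.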

How the results depend on the processing

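Counts here join nuclear and mitochondrially encoded members, and the cause of each change was not tested. PC against GC (58 higher, 5 lower) gave 4 higher and 71 lower without TMM factors, 2 higher with the second barcode series left out and 29 higher in thinned cells. Its lower count was 3 in G1 cells, 9 without immunoglobulin genes, 9 at a minimum of 20 cells, 3 with mitochondrially encoded genes left out and 8 without the mouse as a replicate block. That was the only count moved by over 1.5 times without the block. Without the block Ndufa3 in preMem and in G2/M and Sdhc in DZ no longer passed, and mt-Nd5 in PC and Ndufa4 in cycling PC then passed. Leaving out each mouse gave 44 to 50 higher and 2 to 4 lower. preMem (15 higher, 55 lower) gave 9 higher and 34 lower in G1 cells, 36 lower in thinned cells and 5 higher with mitochondrially encoded genes left out. prePC (12 higher, 3 lower) gave 1 higher and 0 lower in G1 cells, and 5 higher and 13 lower without TMM factors. It gave 6 higher in thinned cells, 6 at a minimum of 20 cells (mouse 2 alone), 7 with mitochondrially encoded genes left out, and 6 higher and 7 lower without a filter. It gave 7 lower with DESeq2, 13 with prePC of the preMem cluster and 12 with the second series left out, and 3 to 9 higher and 2 to 7 lower without each mouse. LZtoDZ (50 higher, 10 lower) gave 27 higher in thinned cells, 2 lower with mitochondrially encoded genes left out, and 35 to 42 higher and 2 to 8 lower without each mouse; it had no value in G1 cells, with 5 to 7 per mouse. DZ (6 higher, 1 lower) gave 33 higher and 3 lower with DESeq2, 37 and 0 in S cells, 38 and 4 without immunoglobulin genes, and 2 and 0 in thinned cells. It gave 12 higher at a minimum of 20 cells, 2 without TMM factors, 1 without a filter and 20 with the second series left out, 0 lower in G1 cells, and 0 to 1 in each direction without each mouse. S over G1 (37 higher, 7 lower) gave 4 lower without a filter, and 25 to 29 higher and 3 to 5 lower without each mouse; G2/M over G1 (34 and 11) gave 20 to 27 and 6 to 7. Cycling PC (10 higher, 25 lower) gave 86 higher and 1 lower without TMM factors. It gave 15 lower with PC of the first series left out, 16 with mitochondrially encoded genes left out and 16 without a filter, and 4 to 8 higher and 12 to 17 lower without each mouse. The G2/M difference between DZ and LZ (0) gave 1 higher and 3 lower with DESeq2, 1 lower without immunoglobulin genes and 4 higher and 1 lower with the second series left out. The cycling difference between PC and GC (0 higher, 20 lower) gave 82 higher and 1 lower without TMM factors, 12 lower with PC of the first series left out, 13 with mitochondrially encoded genes left out, 12 without a filter and 6 to 9 without each mouse. The mitochondrially encoded share differed by -0.575 percentage points in PC, and by 0.0061 without immunoglobulin genes.

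Without TMM factors these log2 fold changes in PC against GC turned negative: Sdhc -0.11, Sdhd -0.58, Uqcrfs1 -0.11, Cox7c -0.098, Cox8a -0.54, Cox6a1 -0.083, Cox7a2 -0.11, Ndufa4 -0.053, Atp5g3 -0.43, mt-Co1 -0.29, mt-Co2 -0.39, mt-Co3 -0.44, mt-Atp8 -0.34, mt-Atp6 -0.64 and mt-Nd3 -0.62. In cycling PC these turned positive: Uqcrq 0.13, Uqcrh 0.46, Ndufb4 0.36, Ndufs3 0.28, Cox7a2l 0.42, Atp5e 0.56, mt-Co1 0.066, mt-Co2 0.32, mt-Co3 0.34, mt-Atp8 0.45, mt-Atp6 0.47, mt-Nd4l 0.32, mt-Nd4 0.32, mt-Nd5 0.32 and mt-Cytb 0.55. With the second series left out, PC against GC gave Uqcr11 -0.20, Atp5g3 -0.019, Atp5k -0.23, Atp5j2 -0.076, mt-Co1 -0.066, mt-Co2 -0.27, mt-Co3 -0.32, mt-Atp8 -0.39, mt-Atp6 -0.41 and mt-Nd3 -0.71. Sdhd in PC was -0.071 in thinned cells, and in G1 cells Atp5g3 in prePC was 0.081 and Sdhc in DZ -0.0018. In G1 cells GC is the average of DZ and LZ.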

Other observations

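Of the complex IV isoforms left out of the tests, all 4 UMIs of Cox6a2 lay in 2 prePC cells, and 80 of the 109 UMIs of Cox6b2 and 123 of the 203 of Cox7a1 lay in DZ cells, which were 3040 of the 6000 cells. The 9 prePC outside the preMem cluster, 6 of them called S or G2/M, had 1.59% mitochondrially encoded and 3.21% nuclear member UMIs. The 40 prePC inside it, 1 of them called S or G2/M, had 1.97% and 2.55%.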
